A study of Mus musculus with 12 samples.

Results

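The 9 genes described here make, carry, bind or break down retinoic acid and its precursors. They were *Aldh1a1*, *Aldh1a2* and *Aldh1a3* (synthesis), *Dhrs3* (retinal reduction), *Stra6* and *Rbp4* (retinol transport), *Crabp1* and *Crabp2* (retinoic acid binding) and *Cyp26b1* (degradation). They were taken by symbol from the 18903 genes of the count table as retinoid enzymes and carriers, several of them known from the meninges. Each symbol was found once. All 9 passed the filter on low counts that left 17938 genes to test, *Rbp4* only through its P8 libraries.

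Retinoic acid is a lipid hormone derived from vitamin A. Retinol is oxidized to retinal, retinaldehyde dehydrogenases turn retinal irreversibly into retinoic acid, and retinoic acid then acts on nuclear receptors (RAR and RXR) that sit on DNA. Cells set its level by making it, by holding it on binding proteins and by oxidizing it with CYP26 enzymes, and the meninges are a known source of retinoic acid for the developing cortex.

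The libraries came from primary astrocytes grown from the brains of WT (hGFAP-Cre:: *Rack7* +/+) and *Rack7*-cKO (hGFAP-Cre:: *Rack7* fl/fl) mice at postnatal days 1, 6 and 8 (P1, P6 and P8). Each combination of genotype and age had 2 libraries. Both genotypes carried the Cre transgene, whose human GFAP promoter acts in neural stem cells of the embryonic pallium, and the floxed allele removes exons 3 and 4 of *Rack7* (gene symbol *Zmynd8*). According to the methods, meninges were stripped off before culture, microglia and oligodendrocytes were shaken off, and mice of both sexes were used. The labels call the libraries of a group biological replicates. The sources used here do not say how many animals or cultures stand behind each, so the p-values measure the spread between these samples, which may be technical.

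Library totals lay between 54413504 and 89183250 reads, and values are given as CPM, reads of a gene scaled to the TMM-normalized library size. At each of the 3 ages *Zmynd8* was higher in libraries labelled cKO (log2 fold change 0.65, 1.04 and 0.70), and its whole-gene count does not show whether exons 3 and 4 were present, so directions below refer to the labels. Protein blots of RACK7, which the study made from such cultures, were not analysed here. The 4 libraries of P6 had between 825 and 1436 CPM of *Xist* and at most 0.0622 CPM of 4 Y-linked genes together. The 8 libraries of P1 and P8 had at most 0.915 CPM of *Xist* and between 259 and 344 CPM of the Y-linked genes. The sex of the cells and the age therefore cannot be told apart in any step into or out of P6. Of 11 astrocyte markers 10 were in the table, led by *Aqp4*, *Gfap* and *Slc1a3*. Their summed level was between 1444 and 2296 CPM in 10 libraries and 717 and 708 CPM in the P8 cKO libraries. With bulk RNA, fewer cells of a type and less RNA per cell cannot be told apart.

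A gene was called where the adjusted p of edgeR's quasi-likelihood test was below 0.05 over all genes tested and the fold change was at least 1.5. At P1, 4 of the 9 genes were called higher in the libraries labelled cKO, where 4.01% of all genes were, and 0 were called lower, where 0.892% were. At P6, 5 were called higher and 3 lower, against 7.16% and 6.38% of all genes. At P8, 3 were called higher and 2 lower, against 11.2% and 8.37%. The members and the lists below were chosen with earlier results of these data known, so such counts are no independent test of them. The median log2 fold change over P1, P6 and P8 was 0.80, 0.66 and -0.19 for the members and 0, 0 and 0.012 for all genes. *Aldh1a1* was the one member called higher at all 3 ages. *Crabp2* and *Stra6* were called at all 3 ages with a direction that turned, and the other members were called at 2 ages or fewer.

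**Figure D1:**
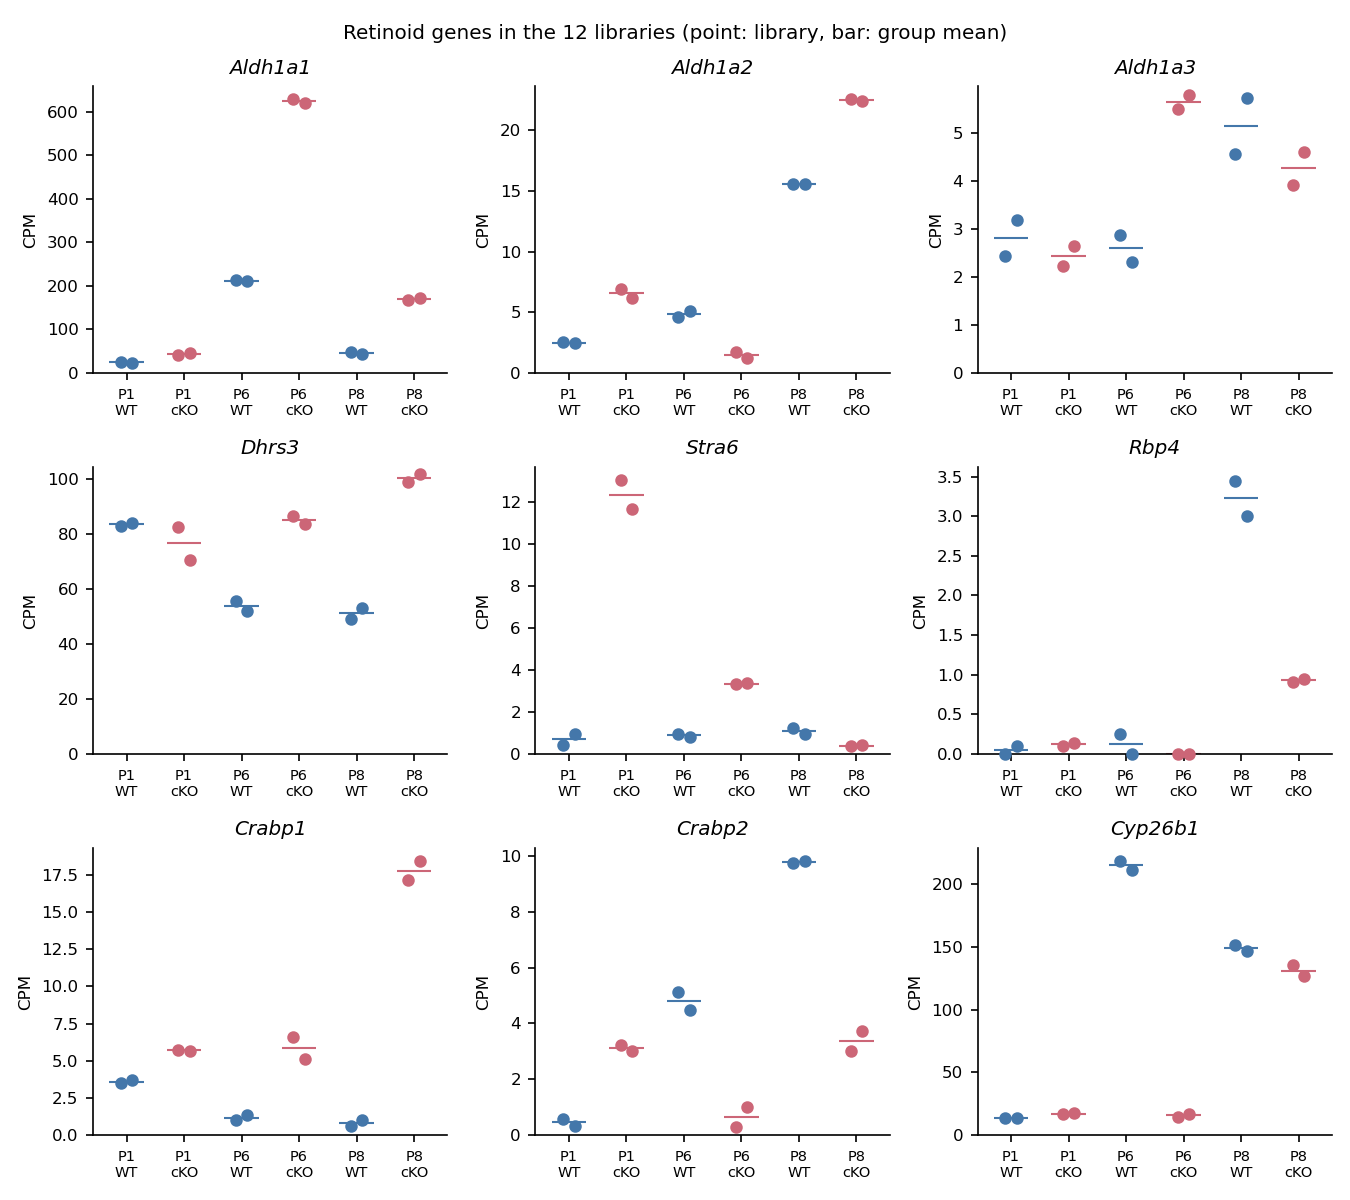
CPM of each of the 9 genes in the 12 libraries, with blue points for libraries labelled WT, red points for libraries labelled cKO and a bar at the mean of each group of 2. *Aldh1a1* peaks in the P6 cKO libraries at 629 and 620.1 CPM, where *Cyp26b1* is at 14.6 and 16.6 CPM against 219 and 212 CPM in the P6 WT libraries.

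The retinaldehyde dehydrogenases catalyse the step that commits retinal to retinoic acid. *Aldh1a1* (ENSMUSG00000053279, GRCm38 chromosome 19, 20492715 to 20643465, plus strand) was at 25.9 and 23.8 CPM in the P1 WT libraries and at 41.6 and 45.0 CPM in the P1 cKO libraries. At P6 it was at 213 and 211 CPM in WT and at 629 and 620.1 CPM in cKO. At P8 it was at 48.6 and 43.8 CPM in WT and at 167 and 173 CPM in cKO. Both cKO libraries were above both WT libraries at each age, and the 2 libraries of a group lay close together. *Aldh1a1* was 1.74-fold higher at P1 (log2 fold change 0.80, SE 0.064, adjusted p = 6.77e-05), 2.94-fold higher at P6 (1.56, SE 0.064, adjusted p = 3.00e-07) and 3.68-fold higher at P8 (1.88, SE 0.065, adjusted p = 5.73e-08). The P8 WT and P1 cKO libraries overlapped in level, and every other neighbour in the order of the 6 groups was apart.

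The annotated span of *Aldh1a1* overlaps *C730002L08Rik* and *Gm6684* on the other strand, without shared exons. *Aldh1a7*, a close relative of *Aldh1a1* in the mouse, had between 0.935 and 13.7 CPM, or 1.57% to 5.72% of the *Aldh1a1* level in the same library. The sources used here do not say how reads matching both genes were counted, so their split is uncertain.

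Promoters are shown for the members called at all 3 ages that have an entry in the RefSeq table used, *Aldh1a1* and *Stra6*. They were searched on both strands for the word AGGTCA, for AGTTCA, for GGTTCA and for GGGTCA, the short words from which retinoic acid response elements are built. The window of the *Aldh1a1* start nearest to its principal annotated start (RefSeq, GRCm38.p6, chr19:20601718-20602017, plus strand) ran from 250 bases before the start to 50 after it. It held 1 such word, GGGTCA on the minus strand, shown in capitals as its reverse complement and beginning at position -49 with the start as 0.
Aldh1a1: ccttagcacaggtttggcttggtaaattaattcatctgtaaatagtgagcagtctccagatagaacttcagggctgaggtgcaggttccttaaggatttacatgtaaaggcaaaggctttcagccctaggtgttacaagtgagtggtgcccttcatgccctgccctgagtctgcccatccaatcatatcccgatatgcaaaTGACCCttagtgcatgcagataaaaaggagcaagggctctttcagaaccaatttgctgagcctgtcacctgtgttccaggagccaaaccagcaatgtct
Of 32851 promoter windows of the same length, 43.7% held such a word, so its presence does not set this promoter apart. A direct repeat of these words with 1, 2 or 5 bases between them, the usual form of a response element, was in 0.588% of all windows and in 0 of the 14 windows found for 7 of the 9 members.

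*Aldh1a2* (ENSMUSG00000013584, chromosome 9, 71215789 to 71296243, plus strand), the dehydrogenase that is best known from the meninges, was between 1.21 and 22.6 CPM. Its values were 2.51 and 2.49 CPM in P1 WT against 6.95 and 6.14 CPM in P1 cKO, and 4.62 and 5.14 CPM in P6 WT against 1.69 and 1.21 CPM in P6 cKO. At P8 it was at 15.6 and 15.5 CPM in WT and 22.6 and 22.4 CPM in cKO. The groups did not overlap at any age, but the cKO libraries were the higher ones at P1 and P8 and the lower ones at P6. On the log2 scale the difference came to 1.39 at P1 (SE 0.150, adjusted p = 0.000439), -1.75 at P6 (SE 0.155, adjusted p = 4.15e-05) and 0.53 at P8 (SE 0.140, adjusted p = 0.0163). The P8 difference of 1.45-fold stayed under the fold change required for a call. The span of *Aldh1a2* overlaps *Gm48124* on the other strand, without shared exons.

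*Aldh1a3* (ENSMUSG00000015134, chromosome 7, 66390890 to 66427517, minus strand), the third enzyme of the family, was low throughout. It was at 2.45 and 3.20 CPM in P1 WT, 2.23 and 2.65 CPM in P1 cKO, 2.87 and 2.32 CPM in P6 WT, 5.50 and 5.80 CPM in P6 cKO, 4.56 and 5.73 CPM in P8 WT and 3.93 and 4.60 CPM in P8 cKO. The groups overlapped at P1 and P8, and at P6 both cKO libraries were higher. Only the P6 difference was called, with a log2 fold change of 1.12 (SE 0.211, adjusted p = 0.00391), against -0.21 (adjusted p = 0.651) at P1 and -0.27 (adjusted p = 0.362) at P8.

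*Dhrs3* (ENSMUSG00000066026, chromosome 4, 144892827 to 144928209, plus strand) encodes a retinal reductase that returns retinal to retinol and so draws on the substrate of the dehydrogenases. It was at 83.0 and 84.0 CPM in P1 WT and 82.6 and 70.6 CPM in P1 cKO, then at 55.5 and 52.1 CPM in P6 WT and 86.5 and 83.6 CPM in P6 cKO. At P8 it was at 49.2 and 53.2 CPM in WT and 98.9 and 101.7 CPM in cKO. The WT groups of P6 and P8 overlapped and were the lowest of the 6, and the P8 cKO libraries were the highest. No call was made at P1 (log2 fold change -0.12, SE 0.079, adjusted p = 0.425), and *Dhrs3* was called higher in cKO at P6 (0.66, SE 0.079, adjusted p = 0.000274) and at P8 (0.97, SE 0.080, adjusted p = 1.45e-05). The highest group mean of *Dhrs3* was 1.96 times the lowest, the narrowest range among the members.

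*Stra6* (ENSMUSG00000032327, chromosome 9, 58063788 to 58153996, plus strand) encodes the membrane receptor that takes up retinol from its plasma carrier. It was at 0.419 and 0.971 CPM in the P1 WT libraries and at 13.0 and 11.7 CPM in the P1 cKO libraries. At P6 it was at 0.963 and 0.832 CPM in WT and 3.35 and 3.36 CPM in cKO, and at P8 at 1.26 and 0.942 CPM in WT and 0.368 and 0.416 CPM in cKO. The 3 WT groups overlapped one another in part, while the cKO groups went from the highest of the 6 at P1 to the lowest at P8. The cKO libraries were 17.5-fold higher at P1 (log2 fold change 4.13, SE 0.354, adjusted p = 0.000104) and higher by 1.90 on the log2 scale at P6 (SE 0.331, adjusted p = 0.0025), and the difference turned to -1.48 at P8 (SE 0.353, adjusted p = 0.00994). Over fits that left out 1 library the P1 log2 fold change ran from 3.66 to 4.88. The P8 call was lost without the first WT or the first cKO library of P8 (adjusted p = 0.0601 and 0.0632). The span of *Stra6* overlaps *Ccdc33* on the other strand and *Gm16131* on the same strand, without shared exons.

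The table of promoters held 4 windows for *Stra6*, each at the start of an annotated transcript, and the whole-gene counts do not show which start was used. The most upstream window (chr9:58128838-58129137, plus strand) held none of the words, and the window at chr9:58133825-58134124 held AGTTCA, in capitals, beginning at position 15 with the start as 0.
Stra6, upstream start: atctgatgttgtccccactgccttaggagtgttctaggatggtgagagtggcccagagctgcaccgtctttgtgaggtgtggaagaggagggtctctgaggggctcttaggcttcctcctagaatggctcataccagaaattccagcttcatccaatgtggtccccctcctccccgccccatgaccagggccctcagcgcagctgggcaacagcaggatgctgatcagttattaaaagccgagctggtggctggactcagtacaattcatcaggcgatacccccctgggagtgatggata
Stra6, downstream start: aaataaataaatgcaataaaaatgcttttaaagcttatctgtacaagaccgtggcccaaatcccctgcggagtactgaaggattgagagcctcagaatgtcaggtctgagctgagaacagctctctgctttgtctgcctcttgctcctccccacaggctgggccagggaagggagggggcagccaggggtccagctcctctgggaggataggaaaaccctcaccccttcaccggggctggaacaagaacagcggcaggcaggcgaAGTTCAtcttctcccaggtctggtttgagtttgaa

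*Rbp4* (ENSMUSG00000024990, chromosome 19, 38116629 to 38125281, minus strand) encodes the plasma carrier of retinol. It had 0 and 8 reads in P1 WT, 6 and 8 in P1 cKO, 16 and 0 in P6 WT and 0 and 0 in P6 cKO, all at or under 0.252 CPM. At P8 it reached 3.45 and 3.01 CPM in WT (205 and 217 reads) and 0.914 and 0.951 CPM in cKO (67 and 80 reads). The P8 groups did not overlap, with WT higher, but the difference was not called (log2 fold change -1.79, SE 1.02, adjusted p = 0.225). At P6 the mean of the WT group was 5.47-fold above a floor of 3 reads over the cKO group. All reads in WT came from 1 library, and the other WT library had 0 reads like both cKO libraries, so no lower bound follows. The P6 difference was not called either (adjusted p = 0.125). DESeq2 called it (adjusted p = 0.0152), a call that rests on that 1 WT library. With edgeR on the P8 libraries alone the P8 difference was called (adjusted p = 0.0031).

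**Figure D2:**
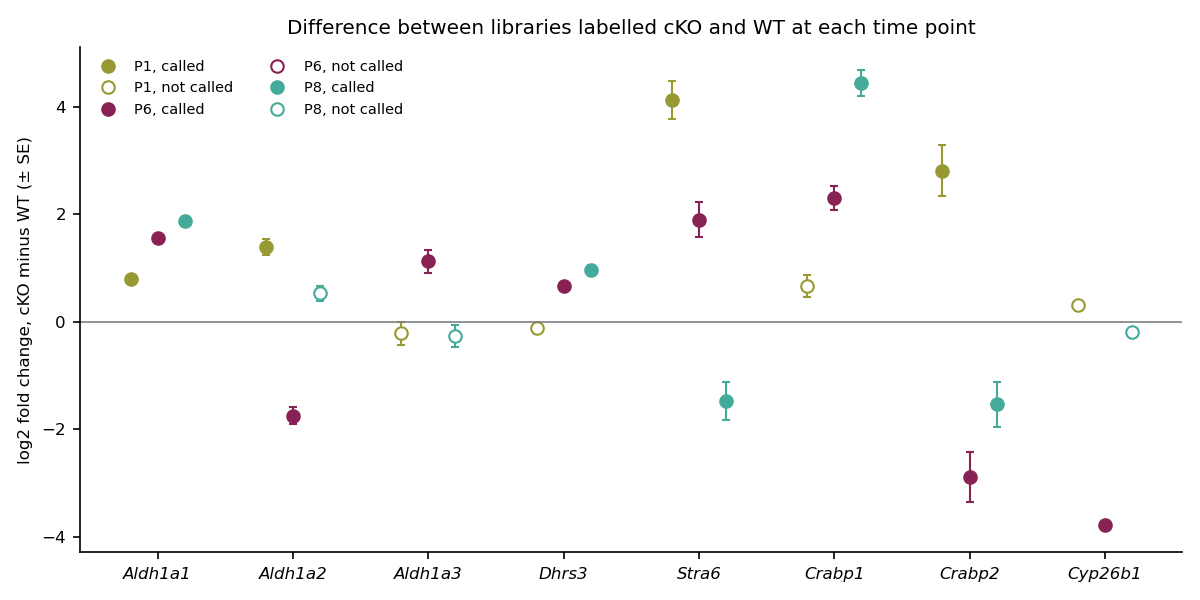
Log2 fold change between libraries labelled cKO and WT at P1, P6 and P8 for 8 genes, with the standard error as bars, filled points for called differences and open points for the others, without *Rbp4*, whose standard error reached 2.54. *Stra6* and *Crabp2* lie above 0 at P1 and below 0 at P8, and *Aldh1a1* lies above 0 at each age.

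The cellular retinoic acid binding proteins hold retinoic acid in the cytoplasm. CRABP2 is known to pass it to nuclear receptors, and CRABP1 is known to hold it away from them and to favour its breakdown. *Crabp1* (ENSMUSG00000032291, chromosome 9, 54764748 to 54773110, plus strand) was at 3.50 and 3.69 CPM in P1 WT and 5.71 and 5.67 CPM in P1 cKO. It was at 1.01 and 1.34 CPM in P6 WT against 6.59 and 5.10 CPM in P6 cKO, and at 0.639 and 0.983 CPM in P8 WT against 17.2 and 18.4 CPM in P8 cKO. Every cKO library was above every WT library of all ages, and the lowest cKO value was 5.10 CPM. As a log2 fold change the difference came to 0.66 at P1 (SE 0.209, adjusted p = 0.0900), 2.31 at P6 (SE 0.224, adjusted p = 7.14e-05) and 4.44 at P8 (SE 0.242, adjusted p = 1.02e-06). The P8 difference was 21.7-fold, over 38 and 71 reads in the P8 WT libraries. The P1 difference was called by DESeq2 (adjusted p = 0.0372).

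*Crabp2* (ENSMUSG00000004885, chromosome 3, 87948666 to 87953376, plus strand) was at 0.570 and 0.332 CPM in P1 WT and 3.23 and 3.02 CPM in P1 cKO. At P6 it was at 5.13 and 4.50 CPM in WT and 0.289 and 1.01 CPM in cKO, and at P8 at 9.74 and 9.81 CPM in WT and 3.01 and 3.72 CPM in cKO. The groups were apart at each age, with cKO higher at P1 and lower at P6 and P8. This gave log2 fold changes of 2.81 at P1 (SE 0.472, adjusted p = 0.00576), -2.89 at P6 (SE 0.459, adjusted p = 0.00149) and -1.54 at P8 (SE 0.415, adjusted p = 0.0183). The 2 P6 cKO libraries lay far apart, and the P6 value was -2.25 without the first and -4.05 without the second of them. The P8 call was lost without any 1 of the 4 P8 libraries (adjusted p = 0.0634 to 0.110), and the P1 call without the second P1 WT library (adjusted p = 0.0538).

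Per kilobase of exons the share of *Crabp1* in the sum of both binding proteins was 91.0% and 94.8% in P1 WT, 24.5% and 33.0% in P6 WT and 9.76% and 14.2% in P8 WT. The P1 cKO libraries had 74.5% and 75.6%, those of P6 97.4% and 89.3%, and those of P8 90.4% and 89.1%. The binding protein messenger was thus mainly *Crabp1* in all cKO libraries and in the P1 WT libraries, and mainly *Crabp2* in the P6 and P8 WT libraries.

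*Cyp26b1* (ENSMUSG00000063415, chromosome 6, 84571414 to 84593908, minus strand) encodes an enzyme that hydroxylates retinoic acid and ends its action. It was at 13.7 and 13.6 CPM in P1 WT and 16.5 and 17.4 CPM in P1 cKO. At P6 it was at 219 and 212 CPM in WT and 14.6 and 16.6 CPM in cKO, and at P8 at 151 and 147 CPM in WT and 135 and 127 CPM in cKO. The P6 cKO libraries overlapped the P1 cKO libraries, and the P6 WT libraries were the highest of all. The log2 fold change was -3.79 at P6 (SE 0.076, adjusted p = 5.57e-09), a level 13.8-fold lower in cKO. It was 0.31 at P1 (SE 0.070, adjusted p = 0.0245, 1.24-fold) and -0.19 at P8 (SE 0.068, adjusted p = 0.0611), and neither was called. The other 2 enzymes of the family, *Cyp26a1* and *Cyp26c1*, had no row in the table used.

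Levels of different members were compared only as CPM per kilobase of exons. In P1 WT *Dhrs3* was highest at 28.5 ± 0.248 (SD, n = 2), followed by *Aldh1a1* at 5.03 ± 0.299 and *Crabp1* at 4.48 ± 0.161. In P6 WT *Aldh1a1* at 43.0 ± 0.365 was followed closely by *Cyp26b1* at 40.2 ± 0.929, and in P6 cKO *Aldh1a1* at 126.5 ± 1.28 stood far above *Dhrs3* at 29.0 ± 0.691. In P8 WT *Cyp26b1* led at 27.9 ± 0.562, and in P8 cKO *Aldh1a1* at 34.5 ± 0.880 and *Dhrs3* at 34.3 ± 0.683 overlapped. *Stra6* or *Rbp4* was the lowest member in each group. With the longest transcript in place of all exons as the length, the first 3 places were the same in each group. Places further down exchanged in P1 cKO and P6 cKO. The near ties depended on the length used. With the longest transcript *Aldh1a1* was at 89.9 and *Cyp26b1* at 47.9 in P6 WT, and *Aldh1a1* at 72.1 and *Dhrs3* at 42.9 in P8 cKO.

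**Figure D3:**
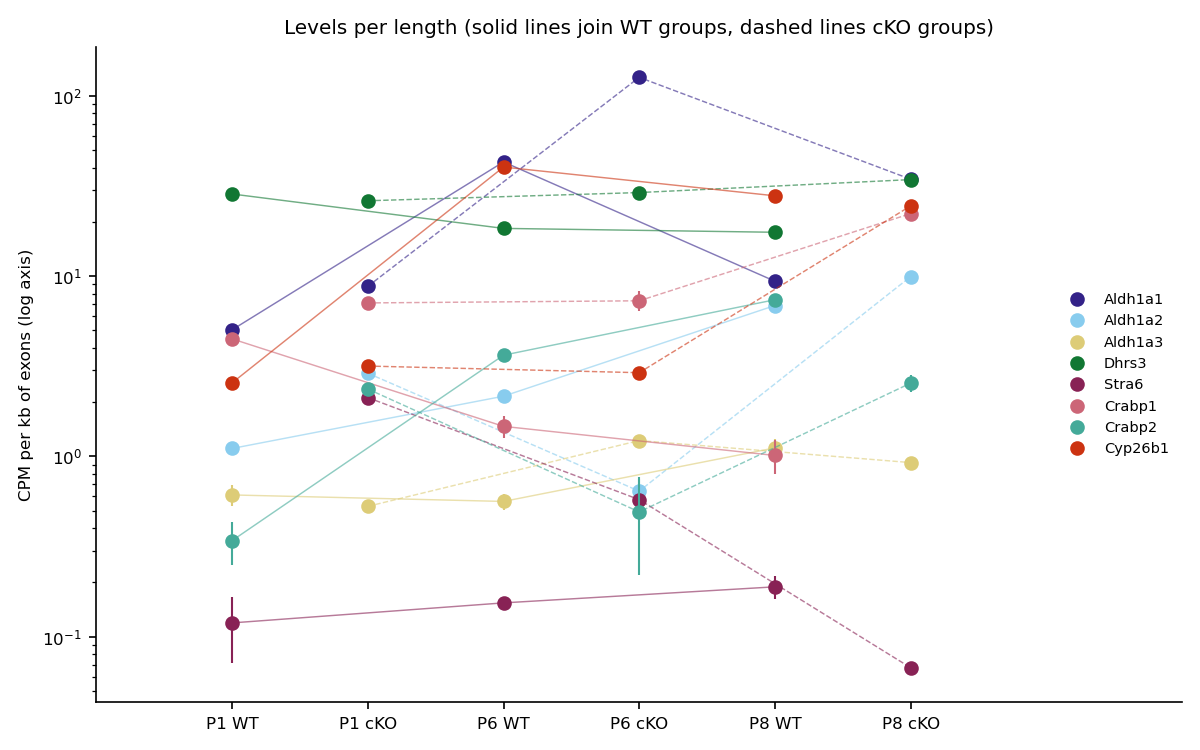
Mean CPM per kilobase of exons of 8 genes in the 6 groups on a log axis, with vertical lines from the lower to the higher library, solid lines between WT groups and dashed lines between cKO groups, without *Rbp4*, which is at 0 in P6 cKO. *Aldh1a1* reaches 126.5 in P6 cKO, where *Cyp26b1* is at 2.91.

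The enzymes of synthesis and of degradation were set against each other as the sum of the 3 *Aldh1a* genes per kilobase over *Cyp26b1* per kilobase, which compares messengers and not enzyme activities. The ratio was 2.68 and 2.60 in P1 WT against 3.88 and 3.82 in P1 cKO. At P6 it was 1.12 and 1.15 in WT and 47.5 and 41.1 in cKO, and at P8 0.626 and 0.618 in WT and 1.76 and 1.94 in cKO. The ratio was higher in both cKO libraries than in both WT libraries at each age, and P8 WT was the one group with more *Cyp26b1* than *Aldh1a* messenger. With 2 libraries against 2, an exact permutation test on a single ratio cannot give a two-sided p below 0.333, so none was run. *Aldh1a1* made up 70.3% to 76.2% of the *Aldh1a* sum at P1, 93.9% and 94.2% in P6 WT, 98.5% and 98.6% in P6 cKO, 52.3% and 55.6% in P8 WT and 75.8% and 76.3% in P8 cKO. *Aldh1a2* reached its largest share, 38.8% and 40.4%, in P8 WT. These values depend on the length used. With the longest transcript the ratio was 1.92 and 1.96 in P6 WT, 83.1 and 71.8 in P6 cKO, 0.856 and 0.829 in P8 WT and 2.72 and 3.01 in P8 cKO, with both cKO libraries still above both WT libraries at each age, and the *Aldh1a2* share in P8 WT was 23.8% and 25.3%.

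**Figure D4:**
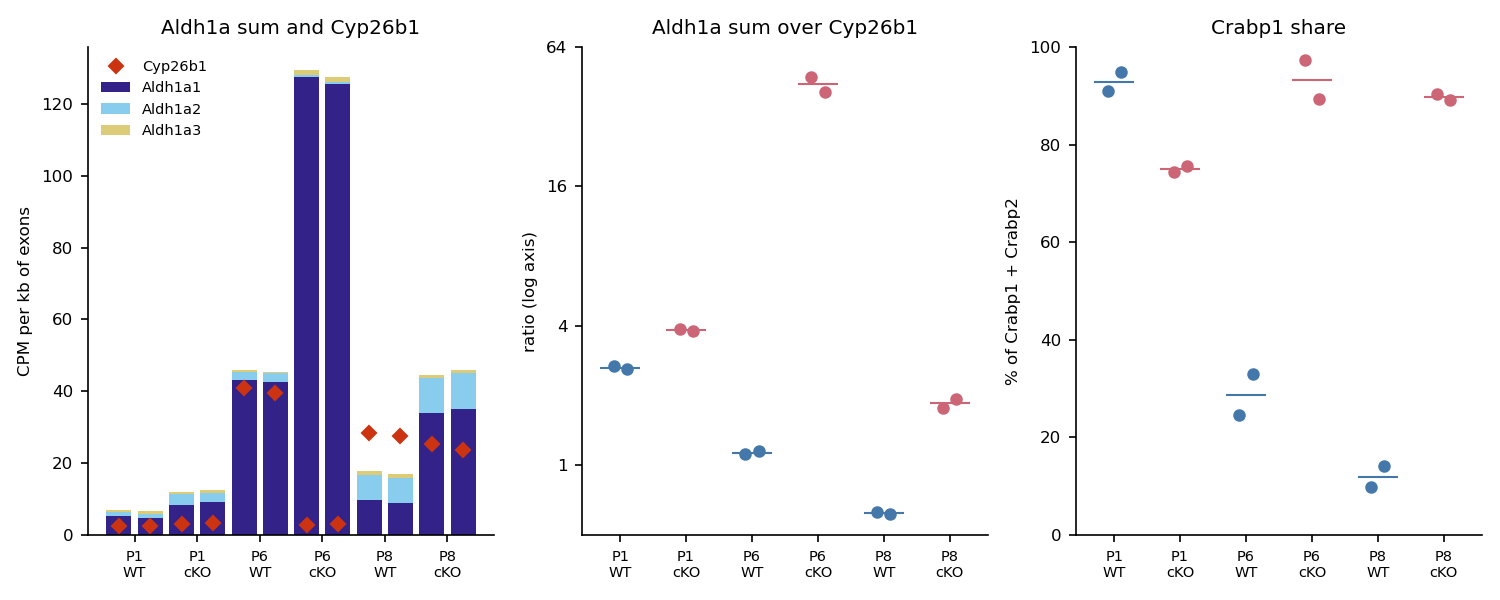
Left, stacked bars of the 3 *Aldh1a* genes in each library with *Cyp26b1* as diamonds, in CPM per kilobase of exons. Middle, their ratio on a log axis. Right, *Crabp1* as a percentage of *Crabp1* plus *Crabp2*, with points for libraries and bars for group means. The ratio is 47.5 and 41.1 in P6 cKO and between 0.618 and 3.88 elsewhere.

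Each label was also followed from one age to the next, steps in which the sex of the cells moved too. In WT from P1 to P6, 4 members were called higher and 2 lower, against 12.2% and 10.9% of all genes. *Cyp26b1* rose 15.7-fold (log2 fold change 3.98, SE 0.077, adjusted p = 9.79e-10), *Crabp2* 10.8-fold, *Aldh1a1* 8.53-fold and *Aldh1a2* 1.95-fold. *Crabp1* fell 3.05-fold and *Dhrs3* 1.55-fold. From P6 to P8 in WT, 3 were called higher and 1 lower, against 8.66% and 10.3%. The count of 3 includes *Rbp4*, whose call is tied to the filter. *Rbp4* rose (log2 fold change 4.68, SE 1.21, adjusted p = 0.0179), in a gene that had passed the filter through P8 alone. Its call was lost without either P8 WT library (adjusted p = 0.0636 and 0.0579), and its log2 fold change was 10.77 without the first and 3.66 without the second P6 WT library. *Aldh1a2* rose 3.18-fold and *Aldh1a3* 1.98-fold. *Aldh1a1* fell 4.59-fold.

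In cKO from P1 to P6, 2 members were called higher and 3 lower, against 11% and 10.4% of all genes. *Aldh1a1* rose 14.4-fold (log2 fold change 3.85, SE 0.070, adjusted p = 1.78e-09) and *Aldh1a3* 2.32-fold, while *Crabp2* fell 4.80-fold, *Aldh1a2* 4.50-fold and *Stra6* 3.68-fold. *Cyp26b1*, which rose in WT over the same step, was not called in cKO (log2 fold change -0.12, adjusted p = 0.205). From P6 to P8 in cKO, 5 were called higher and 2 lower, against 11.9% and 12.2%. The count of 5 includes *Rbp4*, whose call is tied to the filter. *Aldh1a2* rose 15.5-fold, *Cyp26b1* 8.41-fold (log2 fold change 3.07, SE 0.074, adjusted p = 6.57e-09), *Crabp2* 5.18-fold and *Crabp1* 3.04-fold. *Rbp4*, at 0 in P6 cKO, was at least 40.4-fold higher at P8 against the floor of 3 reads, again in a gene whose P8 libraries had carried it past the filter. *Stra6* fell 8.51-fold and *Aldh1a1* 3.67-fold. The *Crabp2* steps of cKO rest on its 2 unlike P6 libraries, and without the first or the second of them its log2 fold change was -1.63 or -3.42 from P1 to P6 and 1.74 or 3.53 from P6 to P8.

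The difference between genotype effects was tested as an interaction, called by adjusted p alone. Between P1 and P6 it was called for 8 of the 9 members (15.3% of all genes), between P6 and P8 for 6 (21.5%) and between P1 and P8 for 7 (25.7%). *Cyp26b1* differed by -4.10 on the log2 scale between P1 and P6 (SE 0.101, adjusted p = 1.29e-08) and by 3.60 between P6 and P8 (SE 0.099, adjusted p = 6.99e-08). *Crabp2* differed by -5.70 between P1 and P6 (SE 0.658, adjusted p = 0.000401) and *Stra6* by -5.61 between P1 and P8 (SE 0.494, adjusted p = 3.55e-05). The *Crabp2* value was -5.06 without the first and -6.86 without the second P6 cKO library. Over fits that left out 1 library the *Stra6* value ran from -6.35 to -5.14. *Aldh1a1*, although higher in cKO throughout, differed by 1.08 between P1 and P8 (SE 0.090, adjusted p = 2.42e-05). These 3 contrasts share libraries with one another.

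Beyond the 9 members, 37 retinoid genes were listed and 29 were in the table and tested. At P1, 6 were called higher and 0 lower, where 4.01% and 0.892% of all genes were. The counts were 4 and 3 at P6 (7.16% and 6.38%) and 7 and 4 at P8 (11.2% and 8.37%). In the order of age, the 29 genes had medians of 0.20, -0.031 and -0.059 on the log2 scale. Among 9 further enzymes of retinol and retinal, *Rdh5*, a retinol dehydrogenase best known from the eye, was higher in cKO at each age, at 7.64 and 7.19 against 24.6 and 28.4 CPM at P1 (log2 fold change 1.84), 5.11 and 5.65 against 28.9 and 26.2 CPM at P6 (2.35) and 3.16 and 3.66 against 10.3 and 8.89 CPM at P8 (1.49). *Rdh10*, which supplies most retinal in the embryo, was at 100.1 and 103 CPM in P1 WT and was not called at any age. At P8 it was at 35.8 and 36.1 CPM in WT and 55.0 and 52.6 CPM in cKO, a difference that passed on adjusted p but fell just short of the fold threshold (log2 fold change 0.58, SE 0.066, adjusted p = 0.000121). *Dhrs9* was called lower at P6 and higher at P8.

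Among 5 further carriers, *Rlbp1*, which binds retinal, was higher in cKO at each age, with log2 fold changes of 1.90, 3.13 and 2.99. *Fabp5*, which can carry retinoic acid to another nuclear receptor, was called lower at P6 (-0.62) and higher at P8 (1.05).

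Of 6 receptors, *Rarb*, which is itself a classical target gene of retinoic acid, was the one called. It was at 4.59 and 5.21 CPM in P1 WT and 12 and 10.5 CPM in P1 cKO (log2 fold change 1.20, SE 0.21, adjusted p = 0.00702), and at 21.1 and 21.7 CPM in P8 WT and 2.54 and 1.58 CPM in P8 cKO (-3.38, SE 0.22, adjusted p = 3.67e-06). The P6 groups, 7.40 and 9.62 CPM in WT and 10.1 and 10.8 CPM in cKO, did not pass (adjusted p = 0.343). *Rarb* was higher in cKO at P1 and lower at P8.

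Of 8 listed target genes of retinoic acid 7 were in the table. Of these, 2 were called higher at P1 (4.01% of all genes), 2 at P6 (7.16%) and 2 at P8 (11.2%). At P8, 1 was called lower (8.37%). *Tgm2* was higher in cKO at P1 (156 and 156 against 276 and 276 CPM) and at P6 (log2 fold change 1.15), as was *Rarres2* (1.84 and 2.67). At P8 *Meis1* and *Meis2* were higher (1.41 and 1.07), and *Rarres1* was lower, at 28.7 and 26.9 CPM in WT against 4.95 and 4.85 CPM in cKO. The 2 receptor corepressors listed were not called at any age.

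Markers of other cell types are given beside these results, since several members are known from the meninges. Of 15 markers of meningeal fibroblasts and arachnoid, 12 were in the table, led by *Col1a1*, *Col1a2* and *Col3a1*, and their summed level was 378 and 401 CPM in P1 WT and 2700.3 and 2667 CPM in P1 cKO. It was 7854 and 7932 CPM in P6 WT against 2638 and 2457 CPM in P6 cKO, and 31384 and 29220.3 CPM in P8 WT against 8218 and 8463 CPM in P8 cKO. Of the 12 markers, 10 were called higher in cKO at P1 (4.01% of all genes), 11 lower at P6 (6.38%) and 12 lower at P8 (8.37%). *Lum* was at 0 in both P6 cKO libraries. The libraries of *Crabp2* and *Cyp26b1* were apart in the same order of labels as the meningeal sum at all 3 ages. Those of *Aldh1a2* were so at P1 and P6, those of *Stra6* and *Rbp4* at P1 and P8, and those of *Aldh1a1* and *Crabp1* at P1. *Aldh1a3* and *Dhrs3* did not follow the sum at any age. This compares order alone and not size. *Cyp26b1* was only 1.24-fold higher in cKO at P1 and 1.14-fold lower at P8, neither called. *Rbp4* at P1 had 0 and 8 reads in WT and 6 and 8 in cKO. The share of all genes with the same order was not counted. The part of meningeal cells in the results was not tested.

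**Figure D5:**
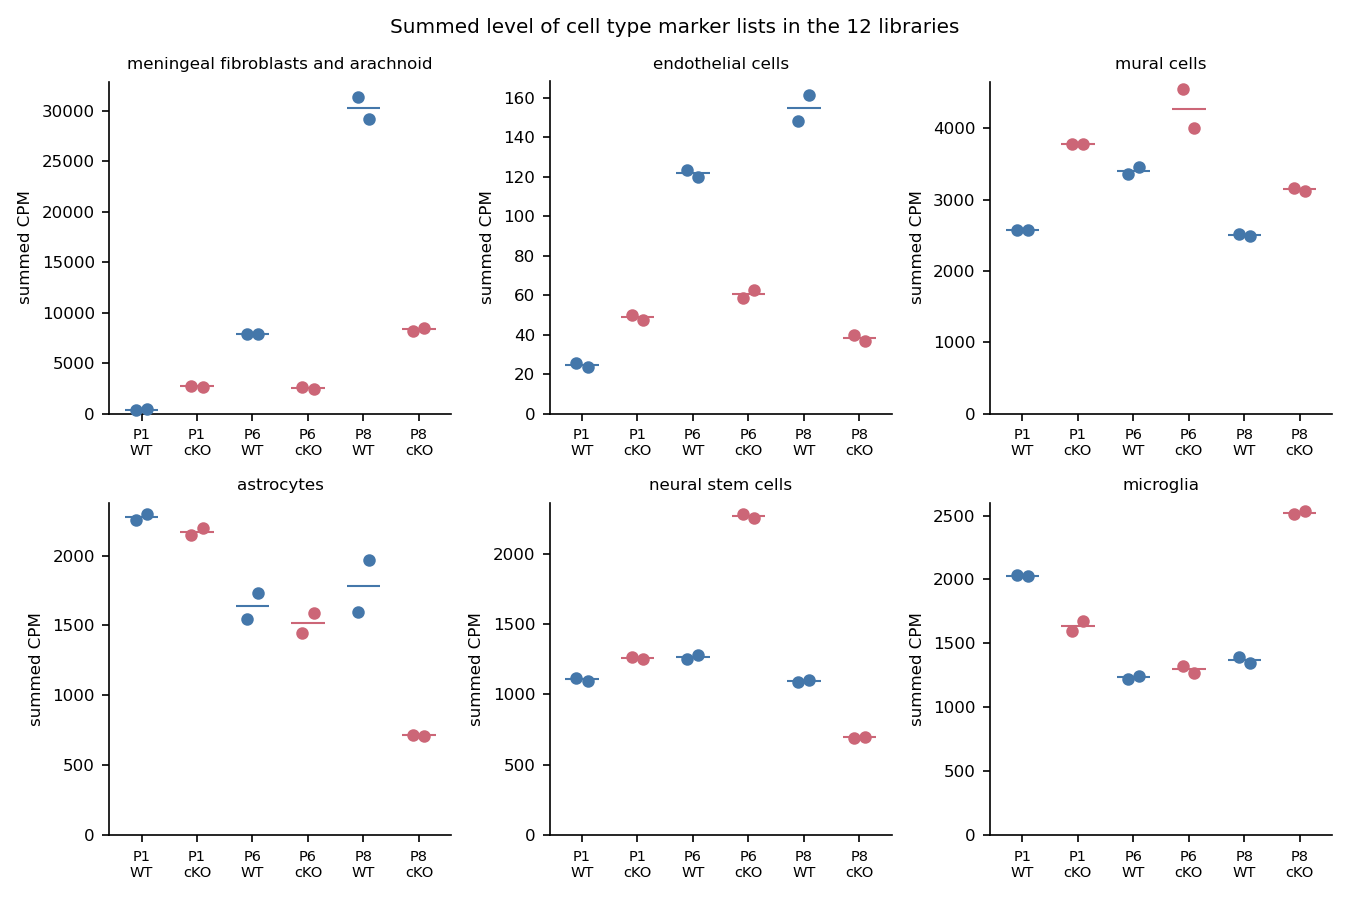
Summed CPM of the markers of 6 cell types in each library, with blue points for WT, red points for cKO and a bar at the group mean. The meningeal sum is highest in the P8 WT libraries, at 31384 and 29220.3 CPM, and lowest in the P1 WT libraries, at 378 and 401 CPM.

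The other marker lists were summed in the same way. For the counts of calls below, 4.01% of all genes were called higher and 0.892% lower at P1. The shares were 7.16% and 6.38% at P6, and 11.2% and 8.37% at P8. In lists this short, a count of 1 is not read as a result. The 4 endothelial markers found of 6, led by *Cdh5*, *Flt1* and *Kdr*, summed to 25.6 and 23.8 CPM in P1 WT and 50.2 and 47.6 CPM in P1 cKO, 123.5 and 120.0 against 58.5 and 62.5 CPM at P6, and 148 and 161 against 39.9 and 36.9 CPM at P8. Of these 4, 2 were called higher in cKO at P1, 3 lower at P6, and 1 higher and 2 lower at P8. The 5 neural stem cell markers, led by *Nes*, *Egfr* and *Sox2*, summed to 1251 and 1278 CPM in P6 WT against 2281 and 2256 CPM in P6 cKO, and to 1087 and 1106 CPM in P8 WT against 692 and 699 CPM in P8 cKO. At P6 and at P8 alike 3 of the 5 were called higher and 1, *Egfr*, lower, and at P1 0 were called. Of the 10 astrocyte markers 1 was called higher and 0 lower in cKO at P1, and 0 higher and 1 lower at P6. At P8, 0 of them were called higher and 5 lower. The mural cell sum (6 of 8 in the table, led by *Acta2*, *Tagln* and *Pdgfrb*) lay between 2490.5 and 4555 CPM and was higher in both cKO libraries at each age, with 1 marker called higher at P1, 1 higher and 3 lower at P6 and 1 higher at P8. The microglia sum (6 of 6, led by *C1qa*, *Csf1r* and *Cx3cr1*) was 2037 and 2025 CPM in P1 WT against 1600.1 and 1678 CPM in P1 cKO, between 1217 and 1325 CPM at P6, and 1396 and 1349 CPM in P8 WT against 2509.5 and 2533 CPM in P8 cKO. Of the 6 microglial markers 2 were called lower at P1, 1 lower at P6, and 3 higher and 1 lower at P8. Choroid plexus and ependyma (3 of 6), the oligodendrocyte lineage (7 of 8) and neurons (3 of 8) stayed at or below 232 CPM. The sum of the first list was 76.6 and 93.1 CPM in P6 WT against 136 and 131 CPM in P6 cKO. At P8 it was 29.6 and 30.5 against 48.2 and 45.8 CPM, and at P1 the groups overlapped. Of its 3 markers, 1 was called higher at P1, 2 higher and 1 lower at P6 and 2 higher at P8. Of the oligodendrocyte markers 1 was called higher at P1, 2 lower at P6, and 1 higher and 3 lower at P8. Of the neuronal markers 1 was called higher at P1, 2 at P6 and 1 at P8. The part of these cell types in the results was not tested.

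For 8 of the members the genes with the most similar pattern were sought among 15132 genes with a mean of at least 1 CPM, by the root mean square difference of centred log2 CPM over the 12 libraries, which is a description without a test. *Arhgef37* was closest to *Aldh1a1* (0.33, against a spread of *Aldh1a1* itself of 1.68), followed by *Tmem179* and *Stc1*. *Vegfd* was closest to *Cyp26b1* (0.45, spread 1.79), followed by *Nid1* and *Glis1*. *Gbgt1*, *Gfpt2* and *Rgs4* were closest to *Aldh1a2*, with 0.45 to 0.54. *Colca2*, *Kitl* and *Stbd1* were closest to *Aldh1a3*, and *Cflar*, *Itpr2* and *Gm9845* to *Dhrs3*. *Sox7*, *Lurap1l* and *Ivl* were closest to *Crabp1* (0.61 to 0.72), and *Gm38340*, *Ror2* and *Bmper* to *Crabp2* (0.63 to 0.68). *Stra6* had no close neighbour, with *Palm3* at 0.82, *Syt1* at 0.89 and *Rarres2* at 0.93 against a spread of 1.73. Among pairs of members, the difference was smallest for *Aldh1a3* and *Dhrs3* (0.59), *Aldh1a2* and *Crabp2* (1.06) and *Crabp2* and *Cyp26b1* (1.09). It was largest for *Cyp26b1* and *Stra6* (2.96). The measure is small for any pair of genes that vary little. The 0.59 was above the spreads of *Aldh1a3* (0.52) and *Dhrs3* (0.38) themselves, so it does not show a shared pattern. The spreads of *Aldh1a2*, *Crabp2* and *Cyp26b1* were 1.44, 1.72 and 1.79.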

How the data were processed

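RNA of primary astrocytes was sequenced in 12 libraries. The authors deposited counts, whole numbers of reads per gene without normalization, made from reads that HISAT2 had mapped to mm10, as stated in the submitters' processing notes and the methods. For the counting program, its strand setting and its handling of shared reads, the sources used here give nothing. For the differential tests the study's methods name ballgown and DESeq2.

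The fits used edgeR 4.0.16 in R 4.3.3 (TMM, filterByExpr, 1 mean for each of 6 groups, quasi-likelihood test, Benjamini-Hochberg adjustment over 17938 genes), and with DESeq2 1.42.0 as an alternative. A call needed an adjusted p below 0.05 together with a 1.5-fold change or more, and interactions were called by adjusted p alone. The 2 libraries of a group differed by more than counting noise (chi-square divided by its degrees of freedom, 30.5 to 47.1). Where a group had no read, 3 reads over the group were its floor, which covers counting error only. Exon lengths and positions came from GENCODE (GRCm38), in which 18873 of 18903 identifiers were found, and promoters from RefSeq. The fits were tested on simulated data.

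All 9 members were named. Of the other retinoid genes, those called with a mean of at least 1 CPM could be named, at most 3 for each list and age, and *Rdh10* was added after its values were seen. Of each marker list the 3 most abundant genes were named, and for each member with a mean of at least 1 CPM the 3 genes most like it. The members and lists were chosen with earlier results of these data known. The alternatives were DESeq2 size factors, no filter, the replicate number as a block, DESeq2, the compared ages alone, unadjusted p, a fold change of at least 2, the longest transcript as length, and fits without 1 of the 12 libraries. There, the lone library of its group was taken to be as variable as the other groups.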

Additional observations from a re-analysis of the deposited data

Results flagged for a closer look

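The difference of genotype effects (cKO minus WT) between 2 ages passed the interaction test of edgeR, adjusted by Benjamini-Hochberg, in 21 cases, and these are given as log2 values with no explanation. From P1 to P6 the effect moved by 0.76 for *Aldh1a1*, -3.13 for *Aldh1a2*, 1.33 for *Aldh1a3*, 1.65 for *Crabp1*, -5.70 for *Crabp2*, -4.10 for *Cyp26b1*, -2.22 for *Stra6* and 0.78 for *Dhrs3*. From P6 to P8 it moved by 0.32 for *Aldh1a1*, 2.28 for *Aldh1a2*, -1.39 for *Aldh1a3*, 2.13 for *Crabp1*, 3.60 for *Cyp26b1* and -3.38 for *Stra6*. From P1 to P8 it moved by 1.08 for *Aldh1a1*, -0.85 for *Aldh1a2*, 3.78 for *Crabp1*, -4.35 for *Crabp2*, -0.50 for *Cyp26b1*, -5.61 for *Stra6* and 1.09 for *Dhrs3*. The sex of the cells cannot be told apart from age in the contrasts with P6. Of these values, the *Aldh1a1* difference from P6 to P8 was lost in 7 of 12 fits that left out 1 library, and the *Aldh1a3* difference from P1 to P6 in 3 of 12. The *Crabp2* difference from P1 to P6 ran from -6.86 to -5.06 over these fits. The *Stra6* difference ran from -2.98 to -1.77 for P1 to P6 and from -6.35 to -5.14 for P1 to P8.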

How the results depend on the processing

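Of 332 counts of called genes recomputed under the alternatives, 325 stayed within 1.5 times the reported count. The 2 members lower at P8 became 0 to 2 when a library was left out, 0 without the first P8 WT or first P8 cKO library and 1 without the second of either, through *Stra6* and *Crabp2*. The 2 members lower from P1 to P6 in WT became 1 with a fold change of at least 2, and the 1 member lower from P6 to P8 in WT became 1 to 2, 2 without the second P8 WT library. The 3 other retinoid genes lower at P6 became 5 at an unadjusted p below 0.05.

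Of 1525 values of single members, 1478 kept their direction and side of the threshold, 19 lost a call and 17 gained one. The other 11 turned in sign or, for *Rbp4* at P6 without the first WT library, fell to 0, and none of them was called. Leaving out 1 library gave log2 values of -0.27 to 0.12 for the change of the *Aldh1a3* genotype effect from P1 to P8, -0.30 to 0.087 for *Aldh1a3* from P1 to P6 in WT, -0.16 to 0.21 for *Crabp1* from P1 to P6 in cKO and -0.11 to 1.10 for *Stra6* from P1 to P6 in WT. For *Rbp4* they were -7.10 to 0 for cKO against WT at P6, -4.92 to 6.06 from P1 to P6 in WT and -1.79 to 5.31 for the change of the genotype effect from P6 to P8.

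Replicate numbers do not pair the libraries, since deviations of same-numbered libraries correlated between -0.050 and 0.10. The fit with the replicate block gave the same member counts, such as 4 higher at P1 and 5 higher and 3 lower at P6, and 666 genes higher at P1 in place of 719. DESeq2 called 264 genes lower at P1 in place of 160. Values below 1 CPM rest on few reads, which limits *Rbp4* outside P8 WT, *Stra6* in WT and P8 cKO, *Crabp1* in P8 WT and *Crabp2* in P1 WT and P6 cKO.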
